A study of Mus musculus with 72 samples.

Results

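The genes described here encode the activating arm of the mammalian circadian clock: *Arntl* (*Bmal1*), its paralog *Arntl2* (*Bmal2*), *Clock* and the *Clock* paralog *Npas2*. They were chosen by name, as the 4 bHLH-PAS clock activators among 55401 genes in the deposited tables, and were followed over all 72 libraries. BMAL1 pairs with CLOCK or NPAS2 and the dimer binds E-boxes in the *Per*, *Cry*, *Nr1d1*, *Nr1d2* and *Dbp* genes. PER and CRY proteins then repress the dimer, and the REV-ERB proteins made from *Nr1d1* and *Nr1d2* repress *Arntl*, *Clock* and *Npas2*, which closes a second loop. In skeletal muscle this clock times genes of fuel use, and NPAS2 can stand in for CLOCK as the partner of BMAL1.

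Poly(A)-selected RNA was sequenced from male mice that lacked *Bmal1* in the whole body (KO), from WT littermates, and from *Bmal1*-KO mice given, as pups, an AAV9 vector in which the muscle promoter CK6 drives an HA-tagged *Bmal1* cDNA (KO+AAV). KO mice came from heterozygous parents. Gastrocnemius was taken at 10 weeks from 6 WT, 6 KO and 7 KO+AAV samples and at 40 weeks from 5 samples of each group. Lung, heart, liver and white fat were taken at 40 weeks from 4 KO and 4 KO+AAV samples each, so every animal behind those tissues lacked endogenous *Bmal1* and no WT tissue was measured. A further 3 KO+GFP gastrocnemius samples carried the same serotype and promoter with GFP in place of *Bmal1* and were set against 3 control KO samples at 10 weeks, in a table normalized separately. At 10 weeks the libraries were sequenced at 2 sites, ICBR (WT replicates 2 to 4, KO replicates 1 to 3, KO+AAV replicates 1 to 4) and Novogene (replicates 5 to 7), whereas the gastrocnemius libraries at 40 weeks and the GFP experiment came from Novogene alone and the other tissues from ICBR alone. Age at 10 and 40 weeks is therefore partly tied to site, which entered the model as a term. The *P* values measure the spread between these samples. The paper places its RNA-Seq collections at the same time of day, early in the light phase. Fold changes and shares given here hold for that time of day only, and other times were not measured in these libraries.

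Values are normalized counts, that is gene reads divided by a size factor for each library, and a fold change is given on the log2(normalized count + 1) scale with its standard error (SE). A gene was called when the limma *P* value, adjusted over all genes tested by the method of Benjamini and Hochberg, was under 0.05. Libraries held between 6754312 and 50755829 gene reads. Skeletal muscle fiber markers were all detected in every gastrocnemius library, with a summed level of 78299 to 169220 RPM (gene reads scaled to the standard common library total). The library of KO heart replicate 2 held hepatocyte transcripts at 29299 RPM, against 6.06 to 14.3 in the other heart libraries. KO white fat replicate 2 held epididymis transcripts at 22504 RPM and adipocyte transcripts at 3807, against at least 15454 for adipocyte transcripts in the other fat libraries. Results that rest on these libraries are given with and without them.

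*Arntl* (ENSMUSG00000055116) lies on the plus strand of chromosome 7 at 113207465 to 113314126 (GRCm38, GENCODE vM21), with 7523 exon bases in 22 exon intervals. Of these bases, 33 overlap the antisense gene *Gm45355*. Among the 7 RefSeq promoter windows of the 4 genes, each from 250 bases before to 50 bases after an annotated start, only those of *Arntl* held a match to a motif searched, and those matches are shown because the motif is the element through which REV-ERB and ROR proteins act on this gene. The motif, AAN followed directly by TAGGTNA on either strand, occurred in 0.682% of 32851 windows over 27025 genes. Both matches stand on the plus strand within annotated *Arntl* exon sequence, with the motif in capitals.
Arntl chr7:113207492-113207521: attggtcggaAAGTAGGTTAgtggtgcgac
Arntl chr7:113207528-113207557: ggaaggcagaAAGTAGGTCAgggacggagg
No window of the 4 genes held the E-box CACGTG, the related element CACGTT or the D-box TTANGTAA, which occurred in 7.15%, 4.68% and 2.32% of all windows.

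*Arntl* is the gene targeted in these mice, and its count was lower in KO than in WT gastrocnemius without reaching 0. In WT muscle at 10 weeks the 6 libraries had 402, 459, 469, 584, 609 and 634 normalized counts. The 6 KO libraries had 196, 197, 225, 247, 267 and 296. All KO libraries lay under all WT libraries, as for 3.45% of genes, with means of 238 ± 39.8 (SD, n = 6) and 526 ± 94.8 (SD, n = 6). *Arntl* fell 2.199-fold in KO (log2 fold change -1.14, SE 0.19, limma adjusted *P* = 6.59e-05). Within Novogene libraries alone the difference was -1.01 and not called (limma adjusted *P* = 0.0826). The table counts reads over the whole gene, and the sources used here do not state which part of the gene the KO allele lacks, so reads from any remaining part count as *Arntl*.

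At 40 weeks the 5 WT libraries had 480, 571, 573, 589 and 608 normalized *Arntl* counts. The 5 KO libraries had 308, 312, 381, 395 and 1039. The values from 308 to 395 stood under every WT library, and the 1039 of KO replicate 2 was the highest of all 34 gastrocnemius libraries of the study's main table. With it, *Arntl* did not pass the test in KO against WT (log2 fold change -0.38, SE 0.20, limma adjusted *P* = 0.182). Without it the KO mean was 349 ± 45.6 (SD, n = 4) and the gene was called (log2 fold change -0.70, SE 0.14, limma adjusted *P* = 3.63e-04).

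KO replicate 2 at 40 weeks was read against clock targets of BMAL1 in the same library. *Per3*, a period gene, had 3.58 normalized counts there (2 reads), the lowest of the KO libraries at this age, which reached 30.3. *Nr1d2*, which encodes REV-ERBβ, had 247, inside the range of 143 to 307 of the KO group. In WT muscle at 40 weeks *Per3* averaged 353 ± 65.0 (SD, n = 5) and *Nr1d2* 1760 ± 123 (SD, n = 5). The high *Arntl* count of this library thus came with *Per3* and *Nr1d2* at KO levels, and its *Npas2* and *Clock* counts of 233 and 1438 lay above all WT libraries.

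*Arntl* was not called higher in KO+AAV than in KO gastrocnemius at either age, although the vector carries a *Bmal1* cDNA. The paper detected HA-tagged BMAL1 protein in KO+AAV gastrocnemius at 10 weeks, below the BMAL1 level of WT. Protein is not measured by these RNA counts. At 10 weeks the 7 KO+AAV libraries ranged from 169 to 281 normalized counts with a median of 222, and at 40 weeks the 5 libraries had 268, 298, 313, 317 and 359. Both sets overlapped the KO libraries and lay below all WT libraries of their age, as for 1.69% of genes at 10 weeks and 5.57% at 40 weeks. Relative to KO the log2 fold change was -0.06 (SE 0.18, limma adjusted *P* = 0.962) at 10 weeks and -0.48 (SE 0.20, limma adjusted *P* = 0.412) at 40 weeks, and the latter was -0.16 (limma adjusted *P* = 0.746) without KO replicate 2. Relative to WT, *Arntl* was 2.29-fold lower at 10 weeks (limma adjusted *P* = 4.79e-05) and 1.81-fold lower at 40 weeks (limma adjusted *P* = 0.00429). Which of the reads in KO+AAV came from the vector and which from the remaining gene cannot be told apart in a gene count.

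**Figure D1:**
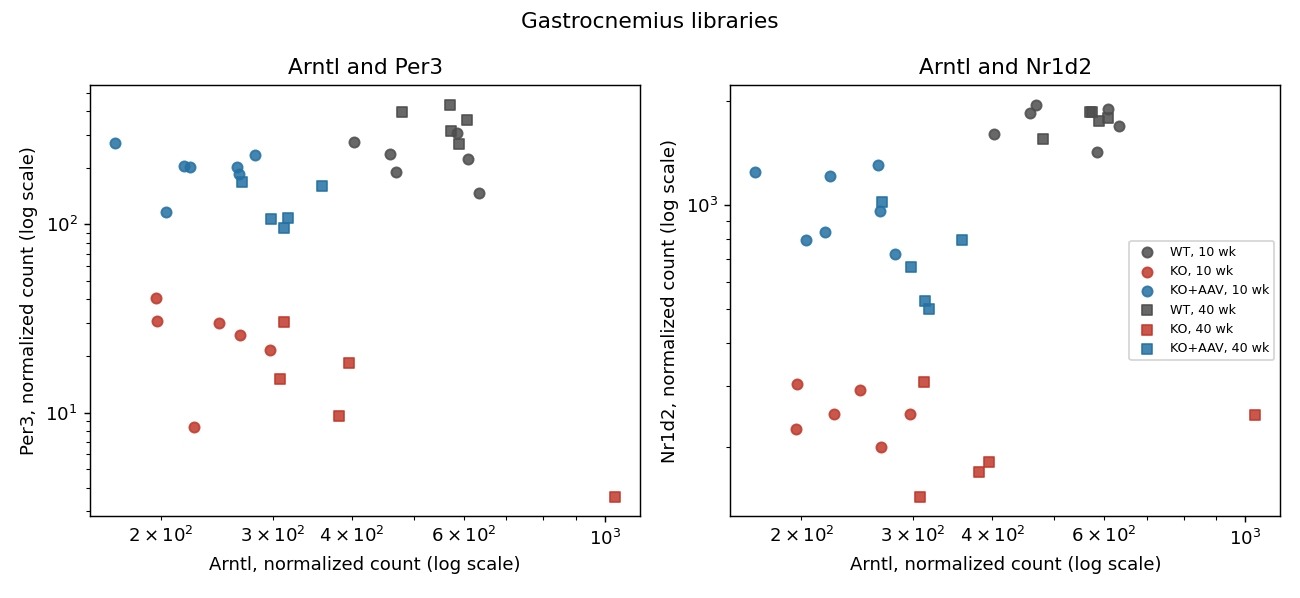
Normalized count of *Arntl* (x axis, log scale) against that of *Per3* and of *Nr1d2* (y axes, log scale) in 34 gastrocnemius libraries, each point 1 library, colored by group, with circles at 10 weeks and squares at 40 weeks. KO and KO+AAV libraries share the *Arntl* range but not the *Per3* range, and the KO library with 1039 *Arntl* counts sits with 3.58 *Per3* counts at the bottom of the plot.

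*Per3* and *Nr1d2* separated KO from KO+AAV, which *Arntl* did not. The target *Nr1d1* did not separate them either, with 351 to 949 normalized counts in KO and 320 to 954 in KO+AAV at 10 weeks. *Per3* averaged 26.2 ± 10.8 (SD, n = 6) normalized counts in KO and 202 ± 47.1 (SD, n = 7) in KO+AAV at 10 weeks, with KO ranging from 8.41 to 40.8 and KO+AAV from 116 to 270. At 40 weeks KO+AAV libraries had 95.9 to 168 *Per3* counts. *Nr1d2* averaged 253 ± 39.4 (SD, n = 6) in KO and 1010 ± 241 (SD, n = 7) in KO+AAV at 10 weeks. Within the 7 KO+AAV libraries at 10 weeks, *Arntl* was set against 4 genes with site removed. Its Pearson *r* was 0.43 with *Npas2*, 0.0045 with *Clock*, -0.32 with *Per3* and -0.75 with *Nr1d2*. Spearman's rho was 0.61, -0.14, 0.036 and -0.79. The smallest *P* value was that of *Nr1d2* (0.104 for *r* and 0.0764 for rho, exact permutation within sites), and after adjustment over the 4 relations it was 0.417 and 0.306. The *P* values for *r* with *Npas2*, *Per3* and *Clock* were 0.382, 0.681 and 1, in the same exact permutation test, and without the 2 libraries farthest from the median (replicates 2 and 7) *r* with *Nr1d2* was -0.58, with *Per3* 0.88 and with *Npas2* 0.76.

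**Figure D2:**
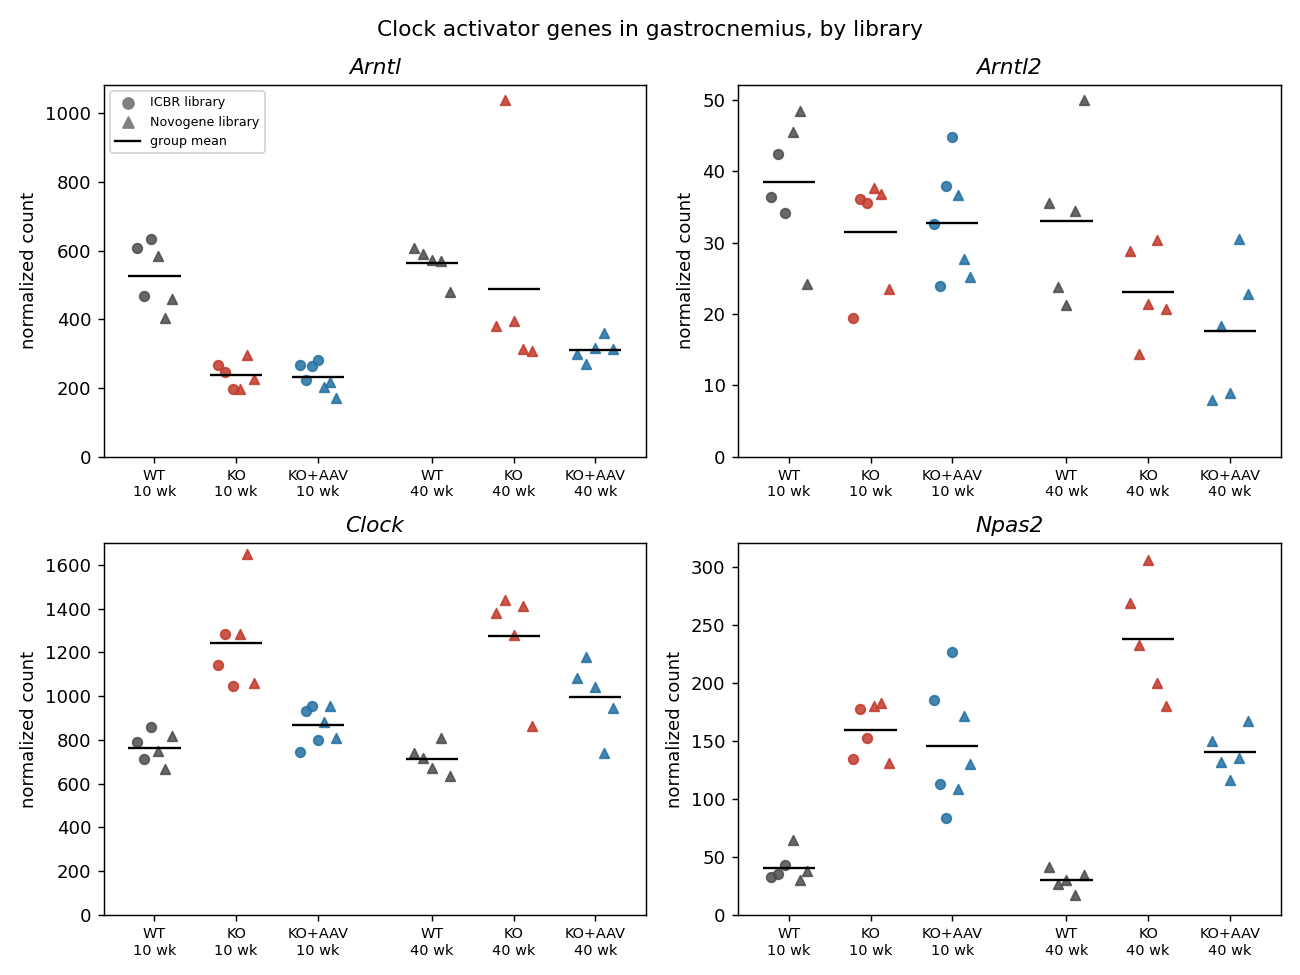
Normalized count (y axis) of *Arntl*, *Arntl2*, *Clock* and *Npas2* in each gastrocnemius library of WT, KO and KO+AAV mice at 10 and 40 weeks; circles are ICBR libraries, triangles Novogene libraries and lines group means. *Npas2* and *Clock* in KO lie above all WT libraries at both ages, and 1 KO library at 40 weeks stands alone for *Arntl*.

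*Npas2* (ENSMUSG00000026077), the *Clock* paralog, lies on the plus strand of chromosome 1 at 39193731 to 39363236, with 4791 exon bases in 23 exon intervals. It was the member that differed most between genotypes. In WT gastrocnemius at 10 weeks the 6 libraries had 30.3, 32.4, 35.5, 37.8, 43.1 and 64.3 normalized counts. The 6 KO libraries had 131, 135, 153, 178, 180 and 183, all above the highest WT library. In this comparison 2.61% of genes were higher without overlap. *Npas2* rose 3.96-fold (log2 fold change 1.99, SE 0.21, limma adjusted *P* = 5.45e-08), from a mean of 40.6 ± 12.5 (SD, n = 6) to 160 ± 23.6 (SD, n = 6). At each site the KO mean was likewise above the WT mean, with 155 against 37.0 at ICBR and 165 against 44.2 at Novogene.

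At 40 weeks the 5 WT libraries had 17.2, 26.3, 30.1, 34.4 and 41.5 normalized *Npas2* counts and the 5 KO libraries 181, 200, 233, 270 and 307. The groups did not overlap, a pattern seen upward in 6.67% and downward in 6.9% of genes, and *Npas2* was 7.89-fold higher in KO (log2 fold change 2.98, SE 0.23, limma adjusted *P* = 6.16e-11). The KO effect was larger at 40 weeks by 0.99 on the log2 scale (SE 0.31). This difference had an unadjusted limma *P* of 0.00345 and did not pass the test over all genes (adjusted *P* = 0.153). For it, 0.37% of genes were called. From 10 to 40 weeks *Npas2* changed by -0.47 (SE 0.24) in WT and by 0.53 (SE 0.24) in KO, neither of them called. WT libraries at 40 weeks held only 11 to 28 *Npas2* reads each.

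The *Npas2* promoter window is shown because this gene moved most between genotypes and its window held none of the elements searched. The 190 bases outside annotated exons, on the plus strand of GRCm38.p6, read as follows.
Npas2 chr1:39194022-39194211: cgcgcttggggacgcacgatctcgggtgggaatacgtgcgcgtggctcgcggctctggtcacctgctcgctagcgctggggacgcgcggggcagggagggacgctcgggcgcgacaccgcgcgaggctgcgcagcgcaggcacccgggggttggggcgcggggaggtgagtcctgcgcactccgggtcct
The window contains 72.7% G and C. The absence of a match says only that these letters are not in these bases.

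In KO+AAV muscle *Npas2* stayed above WT at both ages. The 7 libraries at 10 weeks had 83.6, 109, 113, 130, 172, 185 and 227 normalized counts. All were above the highest WT library, as for 1.17% of genes, and they spread over the KO range on both sides. *Npas2* was 3.47-fold higher in KO+AAV than in WT at 10 weeks (log2 fold change 1.79, SE 0.20, limma adjusted *P* = 6.32e-07) and differed from KO by -0.19 (SE 0.20, limma adjusted *P* = 0.845). The highest value, 227 in replicate 4, stood in the library with the highest fibroblast transcript sum of its group, 5708 RPM in a range of 810 to 5708, and without it the difference from KO was -0.31 (limma adjusted *P* = 0.793). The part of that list in the *Npas2* value was not tested.

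At 40 weeks the 5 KO+AAV libraries had 116, 132, 136, 150 and 168 normalized *Npas2* counts. They lay between the groups, above all WT libraries (as for 6.13% of genes) and below all KO libraries. *Npas2* was 4.72-fold higher than in WT (log2 fold change 2.24, SE 0.23, limma adjusted *P* = 5.11e-08). Against KO it was 1.67-fold lower, with a log2 difference of -0.74 (SE 0.23), which had an unadjusted limma *P* of 0.00317 and did not pass the test over all genes (adjusted *P* = 0.221). Of all genes tested, 0.457% likewise had every KO+AAV library below every KO library at 40 weeks. The difference of this effect between ages was -0.55 (SE 0.31, limma adjusted *P* = 0.929), and 0.00617% of genes were called for it.

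*Clock* (ENSMUSG00000029238) lies on the minus strand of chromosome 5 at 76209868 to 76304792, with 13727 exon bases in 24 exon intervals, and encodes the usual partner of BMAL1. Its count rose in KO muscle by less than that of *Npas2*. The 6 WT libraries at 10 weeks had 667, 713, 747, 788, 816 and 858 normalized counts, and the 6 KO libraries had 1048, 1059, 1143, 1284, 1284 and 1648. No KO library overlapped WT, as for 2.61% of genes upward. *Clock* was 1.61-fold higher in KO (log2 fold change 0.69, SE 0.12, limma adjusted *P* = 1.58e-04).

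The 5 WT libraries at 40 weeks had 635, 669, 717, 741 and 807 normalized *Clock* counts, and the 5 KO libraries had 862, 1281, 1381, 1412 and 1438. The groups again did not overlap (6.67% of genes upward), although KO replicate 5, with 862, stood close to WT. *Clock* was 1.76-fold higher in KO (log2 fold change 0.82, SE 0.13, limma adjusted *P* = 2.49e-05). The effect at 40 weeks exceeded that at 10 weeks by 0.13, which was not called.

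In KO+AAV muscle at 10 weeks *Clock* lay below all KO libraries, with 745, 800, 807, 881, 934, 953 and 953 normalized counts. It was lower than in KO by 0.50 on the log2 scale (log2 fold change -0.50, SE 0.12), with an unadjusted limma *P* of 1.23e-04 and an adjusted *P* of 0.0527, just outside the threshold. The call depended on the tool and filter, since the adjusted *P* was 0.0379 with edgeR, 0.00463 with DESeq2 and 0.0443 with limma on genes with a mean above 50. The share of genes with every KO+AAV library below every KO library was 0.284%. Against WT the difference was 0.18 (SE 0.12, limma adjusted *P* = 0.423).

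At 40 weeks the KO+AAV libraries had 740, 946, 1043, 1081 and 1180 normalized *Clock* counts and overlapped both WT and KO. *Clock* was 1.39-fold higher than in WT (log2 fold change 0.47, SE 0.13, limma adjusted *P* = 0.0153) and differed from KO by -0.35 (SE 0.13, limma adjusted *P* = 0.344). The call against WT was lost without KO+AAV replicate 2 (log2 fold change 0.41, limma adjusted *P* = 0.0517).

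*Arntl2* (ENSMUSG00000040187), which encodes the *Bmal1* paralog BMAL2, lies on the plus strand of chromosome 6 at 146796055 to 146833529, with 5691 exon bases in 17 exon intervals. Its counts were low in gastrocnemius and it was not called in KO against WT at either age. At 10 weeks WT libraries had 24.2 to 48.4 normalized counts, KO libraries 19.4 to 37.7 and KO+AAV libraries 23.9 to 44.8, with all groups overlapping. At 40 weeks the WT libraries had 21.2, 23.8, 34.4, 35.6 and 50.02, the KO libraries 14.3, 20.7, 21.5, 28.9 and 30.3, and the KO+AAV libraries 7.97, 8.87, 18.2, 22.8 and 30.5, the last from 5 to 20 reads a library. KO against WT gave -0.29 (SE 0.28, limma adjusted *P* = 0.65) at 10 weeks and -0.48 (SE 0.30, limma adjusted *P* = 0.267) at 40 weeks. KO+AAV was 1.95-fold lower than WT at 40 weeks (log2 fold change -0.97, SE 0.30, limma adjusted *P* = 0.0304). This call was lost with edgeR (adjusted *P* = 0.0553) and without any of 5 libraries (limma adjusted *P* up to 0.109), and the groups overlapped. Over all processing settings the adjusted *P* of limma, edgeR or DESeq2 reached 0.124. At these counts smaller differences were not detectable.

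Counted together, *Npas2* and *Clock* were called higher and *Arntl* lower in KO against WT at 10 weeks, where 3.74% and 4.26% of all genes tested were called higher and lower. At 40 weeks *Npas2* and *Clock* were called higher and no member lower, against 11.5% and 12% of all genes. None of the 4 members was called with limma in KO+AAV against KO at either age, where 0.204% and 0.259% of genes were called; at an unadjusted *P* under 0.05, which 9.23% of genes had at 10 weeks and 10.1% at 40 weeks, *Clock* passed at 10 weeks and *Arntl*, *Clock* and *Npas2* at 40 weeks. Without KO replicate 2 at 40 weeks, *Arntl* did not pass there (unadjusted limma *P* of 0.236). DESeq2 and edgeR called *Clock* at 10 weeks only. In KO+AAV against WT, *Npas2* was called higher and *Arntl* lower at 10 weeks (background 2.21% and 2.94%), and *Npas2* and *Clock* higher with *Arntl* and *Arntl2* lower at 40 weeks (background 6.41% and 6.05%). The median log2 fold change of the 4 members in KO against WT was 0.20 at 10 weeks and 0.22 at 40 weeks, beside medians of 0.0074 and -0.011 over all genes tested. These member medians describe no common change, since the members went both ways. They ran from -1.14 (*Arntl*) to 1.99 (*Npas2*) at 10 weeks and from -0.48 (*Arntl2*) to 2.98 (*Npas2*) at 40 weeks. KO and KO+AAV were compared with the same WT libraries, so these comparisons are not independent.

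**Figure D3:**
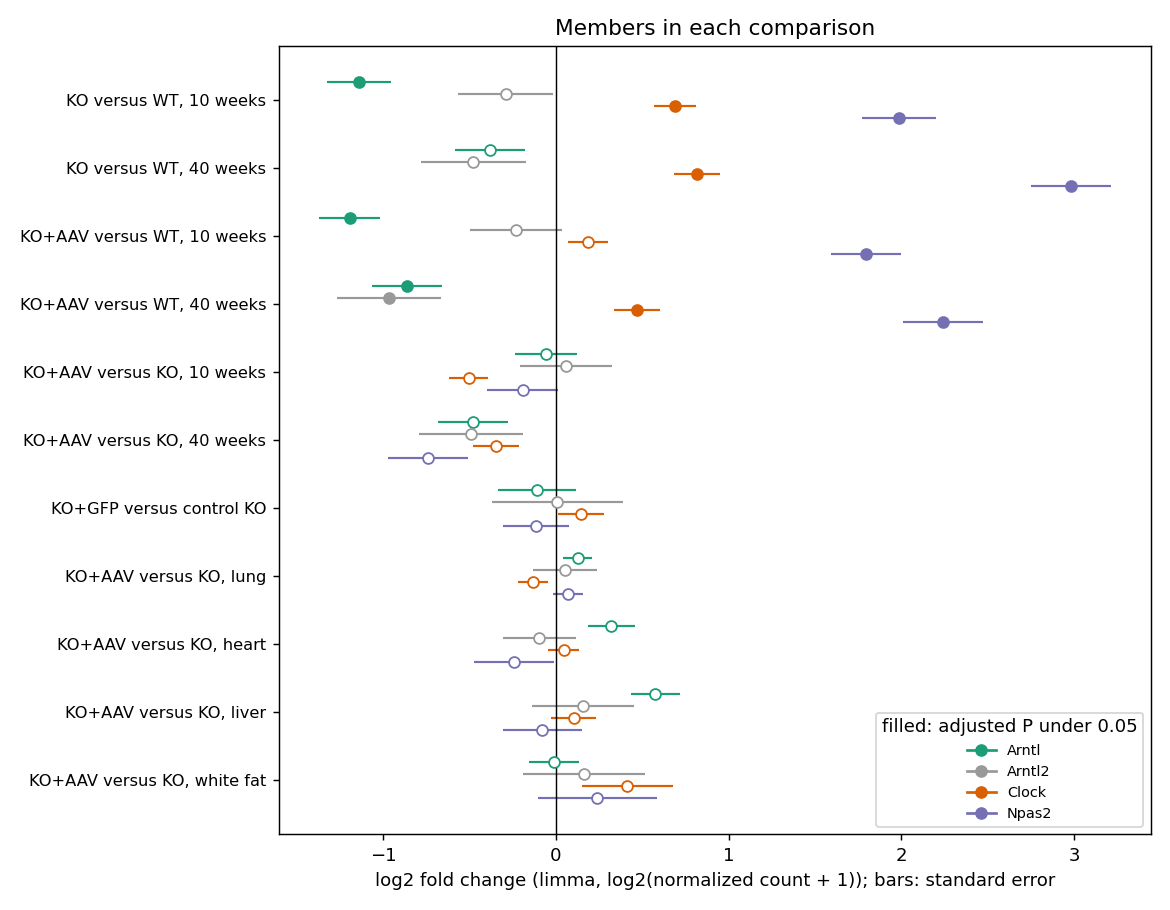
Log2 fold change (x axis, log2(normalized count + 1) scale) with its SE for *Arntl*, *Arntl2*, *Clock* and *Npas2* in 11 comparisons; filled points had a limma adjusted *P* under 0.05. *Npas2* is filled in each comparison with WT, from 1.79 to 2.98, and no point is filled between KO+AAV and KO in any tissue or age.

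The balance between the CLOCK-type partners was measured in each library as the share of *Npas2* in the sum of *Npas2* and *Clock* reads per kb of exon, a value that does not depend on the size factor but does depend on the division by length. In WT gastrocnemius it was 13.1% ± 3.37 (SD, n = 6) at 10 weeks, from 10.5% to 19.8%, and 10.8% ± 3.30 (SD, n = 5) at 40 weeks. In KO it was 27.0% ± 2.14 (SD, n = 6) at 10 weeks, from 24.1% to 29.4%, and 34.9% ± 4.69 (SD, n = 5) at 40 weeks, from 28.9% to 40.7%. No KO library fell inside the WT range. KO exceeded WT by 13.9 percentage points at 10 weeks (exact permutation within sites, two-sided *P* = 0.005, the smallest that 400 arrangements allow, adjusted *P* = 0.0278) and by 24.1 points at 40 weeks (exact permutation, *P* = 0.00794, the smallest that 252 arrangements allow, adjusted *P* = 0.0278). With reads not divided by length, the differences were 6.43 and 11.8 points (exact permutation, both adjusted *P* = 0.0278).

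In KO+AAV libraries the *Npas2* share was 31.99% ± 8.92 (SD, n = 7) at 10 weeks and 29.0% ± 4.93 (SD, n = 5) at 40 weeks. The spread at 10 weeks was the widest of the gastrocnemius groups, from 20.1% to 44.8%. KO+AAV exceeded WT by 18.9 points at 10 weeks (exact permutation within sites, *P* = 0.00286 over 700 arrangements, adjusted *P* = 0.0278) and by 18.2 points at 40 weeks (exact permutation, *P* = 0.00794, adjusted *P* = 0.0278), or by 9.39 and 8.50 points with reads not divided by length. Against KO the differences of 4.97 and -5.90 points did not pass (exact permutation, adjusted *P* = 0.42 and 0.222). The rise of the KO share from 10 to 40 weeks, 8.58 points over Novogene libraries alone, had a *P* of 0.0357 by exact permutation and an adjusted *P* of 0.1 over the 14 comparisons.

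**Figure D4:**
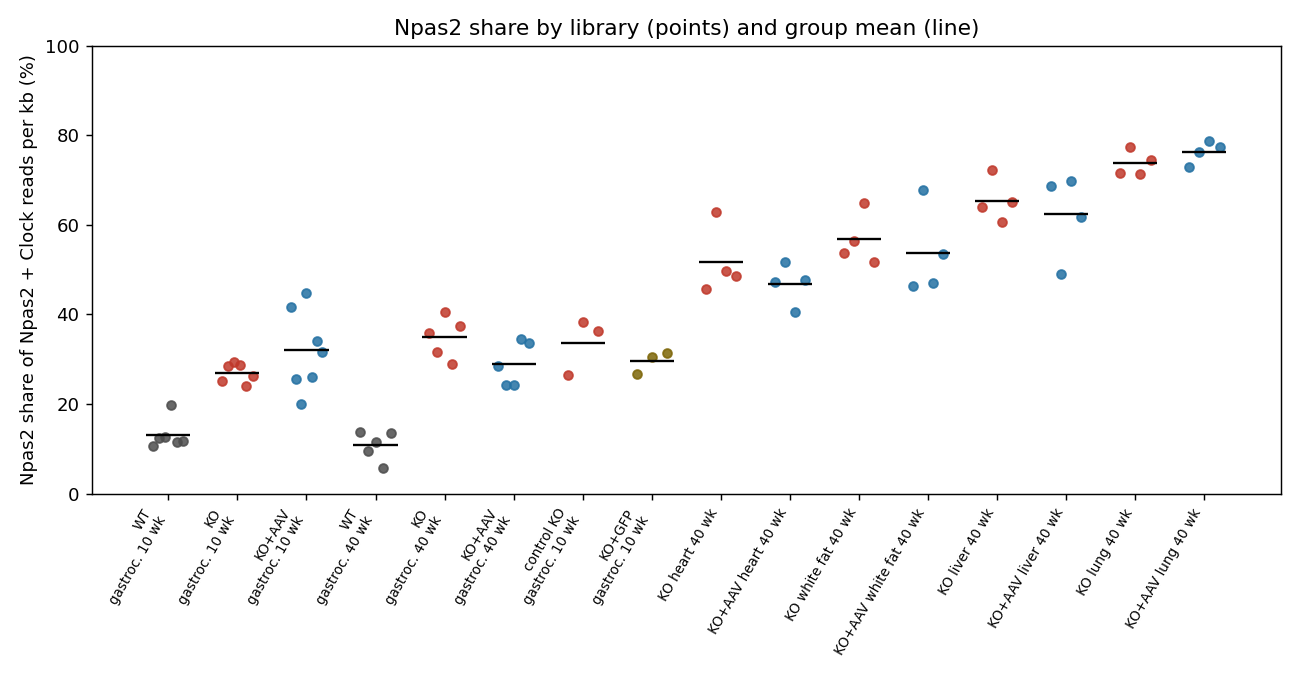
Share of *Npas2* in *Npas2* plus *Clock* reads per kb of exon (y axis, percent) for each library of 16 groups, with a line at the group mean. WT gastrocnemius lies lowest, from 10.8% to 13.1% on average, KO, KO+AAV, KO+GFP and control KO gastrocnemius lie between 27.0% and 34.9%, and lung lies highest.

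Age was compared within each genotype. No member was called between 40 and 10 weeks in WT gastrocnemius (limma, 0.148% of all genes called in either direction), and none had an unadjusted *P* under 0.05 there. In KO muscle *Arntl* was 1.98-fold higher at 40 weeks (log2 fold change 0.98, SE 0.21, limma adjusted *P* = 0.00439), while 4.05% of genes were called higher. All KO libraries at 40 weeks stood above those at 10 weeks, 308 and more against 296 and less, and 2.43% of genes showed that pattern upward. Without KO replicate 2 at 40 weeks, the library with 1039 counts, the log2 fold change was 0.67. The gene stayed called with any 1 KO library of 40 weeks left out (limma adjusted *P* up to 0.0083). Within Novogene libraries alone the gene was not called (log2 fold change 0.87, limma adjusted *P* = 0.0703). Over all processing settings the adjusted *P* of limma, edgeR or DESeq2 reached 0.26. *Npas2* in KO differed by 0.53 (SE 0.24, limma adjusted *P* = 0.166) and *Clock* by 0.01 (limma adjusted *P* = 0.986). In KO+AAV muscle *Arntl2* was called lower at 40 weeks (log2 fold change -0.97, SE 0.31, limma adjusted *P* = 0.0432, background 3.86% lower), a call lost with edgeR (adjusted *P* = 0.0695) and within Novogene libraries alone (limma adjusted *P* = 0.248). *Arntl* in KO+AAV differed by 0.56 (SE 0.21, limma adjusted *P* = 0.0854).

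The other clock genes were taken from lists set up with earlier results of these data known. Of 50 listed genes, 43 passed the filter on low counts. In KO against WT, 2 of them were called higher and 12 lower at 10 weeks, and 5 higher and 14 lower at 40 weeks. Of all genes, 3.74% and 4.26% were called higher and lower at 10 weeks and 11.5% and 12% at 40 weeks, so that the higher calls of the list at 40 weeks were near the background. Among 11 repressors of the loop, 6 were lower and 2 higher at 10 weeks, and 7 lower and 1 higher at 40 weeks. *Nr1d2* fell by 2.78 at 10 weeks and fell by 3.12 at 40 weeks on the log2 scale (limma adjusted *P* = 7.16e-13 and 1.25e-13). *Nr1d1*, which encodes REV-ERBα, fell by 1.91 and fell by 1.97 (limma adjusted *P* = 1.92e-10 and 2.84e-10). *Per3* fell by 3.18 and fell by 4.67 (limma adjusted *P* = 2.54e-08 and 3.78e-11).

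All 3 PAR bZIP factors, transcription factors driven by E-boxes that act on D-boxes of output genes, were lower at both ages. *Hlf* fell by 2.77 and fell by 3.85 (limma adjusted *P* = 2.19e-09 and 7.30e-12), *Dbp* fell by 2.196 and fell by 3.31 (limma adjusted *P* = 1.36e-06 and 1.94e-09), and *Tef* fell by 0.68 and fell by 1.195 (limma adjusted *P* = 1.58e-04 and 3.38e-08). Median log2 fold changes were -1.02 and -1.59 for the repressors and -2.196 and -3.31 for the PAR bZIP factors. In the remaining groups the medians lay between -0.14 and 0.12 at 10 weeks and between -0.06 and 0.26 at 40 weeks for the ROR receptors, the clock kinases and ubiquitin ligases, the cofactors of BMAL1 and CLOCK, and the further bHLH-PAS genes. Their members went both ways, with 3 called lower and none higher at 10 weeks and 4 higher and 4 lower at 40 weeks. From those groups the deubiquitinase *Usp2* (-0.62 and -0.33, limma adjusted *P* = 2.95e-05 and 0.0230) and the acetyltransferase *Ep300* (-0.53 and -0.69, limma adjusted *P* = 8.64e-04 and 3.72e-05) were lower at both ages.

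In KO+AAV against KO, 5 of the 43 genes were called higher and none lower at 10 weeks, and 4 higher and none lower at 40 weeks, beside 0.136% and 0.222% of all genes called higher. *Per3* rose by 2.99 and by 3.20, *Nr1d2* by 1.96 and by 1.74, *Hlf* by 1.87 and by 2.199, and *Dbp* by 1.75 and by 1.84. *Nr1d1* differed by 0.15 (limma adjusted *P* = 0.83) and 0.32 (limma adjusted *P* = 0.532) and was not called. The paper's qPCR at 10 weeks reports *Nr1d1* as higher in KO+AAV than in KO. The members of the activator arm are not on these lists and were tested apart.

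The GFP vector was compared with control KO muscle to measure the vector without *Bmal1*. No member differed with limma, edgeR or DESeq2, and none had an unadjusted limma *P* under 0.05. *Npas2* had 64.4, 68.7 and 78.4 normalized counts in KO+GFP and 60.6, 77.3 and 94.3 in control KO (log2 fold change -0.11, SE 0.19, limma adjusted *P* = 0.803). *Arntl* had 70.2, 123 and 150 in KO+GFP and 113, 119 and 121 in control KO (log2 fold change -0.11, SE 0.23, limma adjusted *P* = 0.845). *Clock* differed by 0.15 (SE 0.13) and *Arntl2*, at 10 to 28 reads a library, by 0.01 (SE 0.38). The groups overlapped for all 4 genes, while 3.09% of genes tested were called in either direction. On the clock lists, 3 or 4 genes were called, depending on the tool. With limma *Nr1d1* was among them, lower in KO+GFP (log2 fold change -0.54, SE 0.12, limma adjusted *P* = 0.0386). *Per3* and *Nr1d2* were not called. Heart muscle transcripts summed to 109 to 132 RPM in KO+GFP and 7.91 to 52.3 in control KO, and macrophage transcripts to 27.4 to 38.4 and 10.4 to 12.1. Schwann cell transcripts went the other way, 45.7 to 63.3 against 116 to 147 RPM, as did skeletal muscle fiber transcripts, 114048 to 119897 against 131442 to 146163. Their part in these values was not tested. Normalized counts of this table cannot be set against those of the main table, but the *Npas2* share can, and it was 29.6% ± 2.59 (SD, n = 3) in KO+GFP and 33.7% ± 6.30 (SD, n = 3) in control KO, a difference of -4.11 points (exact permutation, *P* = 0.4, where 3 against 3 allows no less than 0.1).

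Lung, heart, liver and white fat were compared between KO and KO+AAV to measure the clock activators outside the muscle that the CK6 promoter targets. These tissues need not be free of the vector. The paper found more vector genome copies in liver and heart than in skeletal muscle, but detected no HA-tagged protein there. It measured both in younger mice than those sampled here, and gives no copy number for lung or white fat. Whether vector reads add to the *Arntl* counts of these tissues was not tested. No member was called in any of the 4 tissues with limma, edgeR or DESeq2. In liver *Arntl* had 584, 596, 652 and 679 normalized counts in KO and 781, 836, 950 and 1231 in KO+AAV. All KO+AAV libraries were the higher ones, a pattern seen in 1.08% of genes, with a log2 fold change of 0.58 (SE 0.14) that had an unadjusted limma *P* of 0.0023 and an adjusted *P* of 0.997. DESeq2 gave an adjusted *P* of 0.156. In liver 0% of genes were called with limma, while 553 of 16656 had an unadjusted *P* under 0.05, edgeR called 0 and DESeq2 10.

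In heart *Arntl* had 484, 564, 624 and 653 normalized counts in KO and 627, 709, 746 and 821 in KO+AAV, overlapping in 1 pair of libraries (log2 fold change 0.32, SE 0.14), with an unadjusted limma *P* of 0.0469 and an adjusted *P* of 0.862. Without KO replicate 2, which held hepatocyte transcripts, the value was 0.38, with an unadjusted limma *P* of 0.0165, and the gene was still not called. In lung *Arntl* had 1413, 1423, 1489 and 1503 in KO and 1427, 1499, 1641 and 1819 in KO+AAV (log2 fold change 0.13, SE 0.08). In white fat it had 765, 935, 1009 and 1144 in KO and 879, 906, 968 and 1043 in KO+AAV (log2 fold change -0.01, SE 0.15, and -0.12 without KO replicate 2). In heart and white fat 0% of genes were called with limma, with 232 and 220 genes at an unadjusted *P* under 0.05; edgeR called 0 in both and DESeq2 0 and 1. In lung 0.0237% were called, which is 5 of 21072 genes with limma, against 4 with edgeR and 626 with DESeq2.

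*Npas2* overlapped between KO and KO+AAV in every tissue. In liver it had 1372, 1475, 1848 and 1855 normalized counts in KO and 1034, 1314, 1796 and 2293 in KO+AAV (log2 fold change -0.08, SE 0.23). In heart it had 790, 822, 935 and 1538 in KO, the last in replicate 2, and 663, 830, 857 and 1005 in KO+AAV. The difference of -0.24 (SE 0.23) was -0.03 without that replicate. In white fat the KO libraries had 1234, 2342, 2441 and 2937 and the KO+AAV libraries 1850, 1866, 2867 and 4078. The difference there was 0.24 (SE 0.34), and -0.02 without KO replicate 2, which was the lowest. In lung it had 3514, 3886, 4087 and 4241 in KO and 3559, 4240, 4284 and 4452 in KO+AAV (log2 fold change 0.07, SE 0.09). Lung of KO+AAV also held more heart muscle transcripts, 1386 to 4423 against 78.0 to 820 RPM, and their part was not tested.

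*Clock* and *Arntl2* likewise overlapped. *Clock* had 2040 to 2857 normalized counts in KO and 2321 to 3086 in KO+AAV liver, 2381 to 2836 and 2614 to 2787 in heart, 3535 to 4436 and 3279 to 3949 in lung, and 2718 to 6255 and 5535 to 7109 in white fat. The heart difference was 0.05, and 0.04 without KO replicate 2. The white fat difference of 0.41 (SE 0.26) was 0.16 without KO replicate 2. *Arntl2* had 41.4 to 86.0 normalized counts in liver, 114 to 210 in heart, 104 to 178 in lung and 132 to 411 in white fat over both groups. Its difference was -0.09 in heart and 0.16 in white fat, and -0.21 and -0.19 without the respective KO replicate 2, none of them called.

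Levels were compared between tissues per length, as RPKM (reads per kb of exon, scaled to the gene reads of the library) over 8 libraries each, KO and KO+AAV together. Neighbors in each order were tested by exact permutation of libraries over 12870 arrangements, with *P* values adjusted over 12 pairs. In bulk tissue, fewer cells that express a gene and less RNA of it per cell cannot be told apart. *Npas2* was highest in lung, 19.2 ± 1.59 (SD, n = 8), above white fat with 11.4 ± 4.98 (adjusted exact permutation *P* = 0.00373). Liver, 8.18 ± 2.11 (SD, n = 8), did not differ from white fat beyond its spread (adjusted exact permutation *P* = 0.159; liver stood above white fat by 0.36 on the log2 scale under TMM scaling), and heart was lowest with 4.55 ± 1.10 (adjusted exact permutation *P* = 0.00224 against liver).

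*Clock* followed another order. White fat, 8.77 ± 1.78 (SD, n = 8), was above lung, 6.34 ± 0.536 (adjusted exact permutation *P* = 0.0139). Lung was above heart, 4.62 ± 0.666, with an adjusted exact permutation *P* of 0.00224, but below heart by 0.56 on the log2 scale under TMM scaling. Heart and liver, 4.46 ± 0.538 (SD, n = 8), did not differ beyond their spread (adjusted exact permutation *P* = 0.632). The *Npas2* share per kb, which no library scaling touches, was 73.8% ± 2.87 in KO and 76.4% ± 2.43 in KO+AAV lung, 65.4% ± 4.89 and 62.4% ± 9.62 in liver, 56.8% ± 5.78 and 53.7% ± 10.0 in white fat, and 51.7% ± 7.68 and 46.8% ± 4.61 in heart (SD, n = 4 each). With reads not divided by length, the KO and KO+AAV shares were 49.6% and 53.1% in lung and 40.0% and 37.4% in liver. They were 31.7% and 29.5% in white fat and 27.6% and 23.6% in heart. Without the respective replicate 2, the per-length KO share was 48.0% ± 2.14 in heart and 56.8% ± 7.08 in white fat (SD, n = 3), and the heart difference between KO+AAV and KO moved from -4.93 to -1.19 points. Every one of these per-length group means was above the 34.9% of KO gastrocnemius at 40 weeks. Those gastrocnemius libraries came from Novogene and the other tissues from ICBR, so tissue and site cannot be told apart there. Without KO heart replicate 2 and KO white fat replicate 2, all 12 pairs of neighbors over the 4 genes stayed on the same side of the threshold. None of the 4 share differences between KO and KO+AAV passed (exact permutation, smallest possible *P* = 0.0286).

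*Arntl* reads of the KO and KO+AAV animals were highest in lung, 4.63 ± 0.413 (SD, n = 8), although liver ranked above lung under TMM scaling (3.49 against 3.07). Lung showed no overlap with white fat, 2.80 ± 0.436 (adjusted exact permutation *P* = 9.32e-04). White fat, liver (2.52 ± 0.659) and heart (2.06 ± 0.438) did not differ from their neighbors beyond the spread, except that liver stood above white fat under TMM scaling by 0.60 on the log2 scale. Pooling covers opposite orders, since white fat and liver averaged 2.87 and 2.01 in KO but 2.74 and 3.02 in KO+AAV. *Arntl2* was highest in white fat, 1.15 ± 0.301, above heart, 0.597 ± 0.136 (adjusted exact permutation *P* = 0.00224, and 0.495 under TMM scaling). Heart did not differ from lung, 0.505 ± 0.0919, beyond the spread (adjusted exact permutation *P* = 0.16, and 6.22e-04 under TMM scaling). Lung was above liver, 0.251 ± 0.0811, without overlap (adjusted exact permutation *P* = 9.32e-04), a difference that was -0.0089 under TMM scaling.

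**Figure D5:**
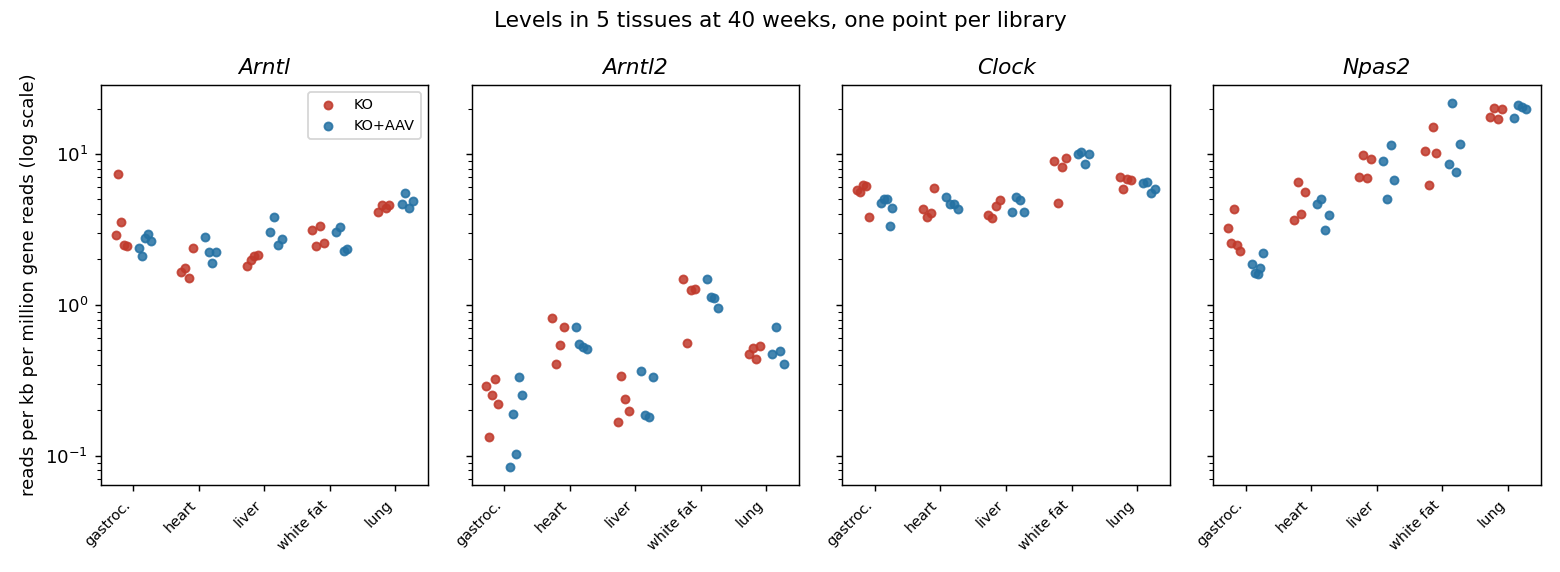
RPKM, reads per kb of exon scaled to the library's gene reads (y axis, log scale), of the 4 genes in gastrocnemius, lung, heart, liver and white fat at 40 weeks, each point 1 KO or KO+AAV library. *Npas2* spans the widest range, from gastrocnemius, where KO averages 2.98, to lung with 19.2 over both groups. Gastrocnemius libraries came from Novogene and the other tissues from ICBR, so tissue and site cannot be told apart between them.

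In gastrocnemius on the same per-length scale, *Arntl* averaged 4.25 and *Clock* 3.37 RPKM in WT at 10 weeks, while *Npas2* and *Arntl2* averaged 0.516 and 0.410. In KO at that age *Clock* averaged 5.54, *Npas2* 2.05, *Arntl* 1.94 and *Arntl2* 0.339. *Npas2* thus moved from near the *Arntl2* level in WT to near the *Arntl* level in KO, which was itself below the 4.25 of WT. The *Arntl* value in KO divides the remaining reads by all exon bases of the gene. In KO at 40 weeks *Npas2* averaged 2.98 and in KO+AAV 1.82.

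The genes whose counts followed each member most closely were sought across the 34 gastrocnemius libraries, on the log2 scale with site removed, among 11091 genes with a mean above 50. These correlations are a description, since libraries share genotype and age. *Npas2* ran most closely opposite *Yaf2* (*r* = -0.93), *Nr1d1* (*r* = -0.93) and *Pter* (*r* = -0.92), and most closely with *Rab11b* (*r* = 0.92), *Rab11b-ps2* (*r* = 0.92) and *Rps13-ps1* (*r* = 0.91). Reads of the last 2, which are pseudogenes, may be shared with their parent genes. With group as well as site removed, *r* was 0.04 for *Rab11b*, 0.06 for *Rps13-ps1* and 0.41 for *Rab11b-ps2*, and -0.49 for *Yaf2*, -0.34 for *Nr1d1* and -0.61 for *Pter*.

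*Clock* went most closely with *Ociad1* (*r* = 0.84), *Klhl24* (*r* = 0.84) and *Sh3bp5* (*r* = 0.82) and opposite *Nkain1* (*r* = -0.86), *Col24a1* (*r* = -0.85) and *Abl1* (*r* = -0.83). *Arntl* went with *Gbp10* (*r* = 0.83), *Inmt* (*r* = 0.83) and *Fmo2* (*r* = 0.82) and opposite *Grb10* (*r* = -0.84), *Fgf11* (*r* = -0.84) and *Knop1* (*r* = -0.83). *Arntl2* went with *Unc119b* (*r* = 0.75), *Pip5k1c* (*r* = 0.67) and *Lsp1* (*r* = 0.65) and opposite *Ctnna3* (*r* = -0.71), *Gm13910* (*r* = -0.67) and *Ikbkg* (*r* = -0.67). Among the members, *Clock* and *Npas2* had *r* = 0.71 across libraries and 0.02 once group was removed as well. *Arntl* and *Npas2* had *r* = -0.55, which was -0.72 without KO replicate 2 at 40 weeks and 0.21 once group was removed.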

How the data were processed

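Gene counts came from poly(A)-selected RNA of 72 libraries. The authors aligned reads to mm10 (GRCm38) with HISAT2, counted them per gene with HTSeq and normalized them with DESeq2; the study's methods give a version for HISAT2 only, and annotation release and strand setting are not given in the sources used here. The deposited values are a signal, gene read counts divided by 1 size factor per library, and at a tolerance of 0.05 reads, 100% of them came back as whole reads. Means above 5 were kept, and log2(normalized count + 1) was fitted with limma 3.58.1 (R 4.3.3, trended eBayes): the 34 gastrocnemius libraries as 6 groups with site as a term, each tissue alone, and the GFP table alone. The limma step was tested on simulated data with known changes. edgeR 4.0.16 and DESeq2 1.42.0 on the recovered reads were alternatives; in KO against WT, edgeR called 1335 genes at 10 weeks and 3598 at 40 weeks, limma 1296 and 3804. Permutation tests were exact and two-sided (SciPy 1.17.1, NumPy 2.4.6, pandas 2.3.3, Python 3.11.15). Genes were named by rule: the members in every group, the 3 highest and 3 lowest correlations with each, and up to 3 genes per clock list called in KO against WT at both ages. The members and lists were chosen with earlier results of these data known. Leaving out KO+AAV replicate 4 at 10 weeks, KO replicate 2 at 40 weeks (clock lists and correlations), and KO heart and white fat replicates 2 (tissue order, *Npas2* share), and the replicate block across tissues, were chosen after seeing the data. Coordinates are from GENCODE vM21 and promoters from RefSeq (GRCm38.p6).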

Additional observations from a re-analysis of the deposited data

Results flagged for a closer look

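Over 70 sets of samples, each a gene or the *Npas2* share in 1 group of 4 to 7 libraries, 5 held a library farther from the rest than Dixon's 95% critical value allows. Chance gives about 1 in 20 such sets. The *Arntl* count of KO gastrocnemius replicate 2 at 40 weeks was 1039, the highest of its group, and in the same age group of WT the *Arntl* count of replicate 5 was the lowest, 480. The *Clock* count of KO gastrocnemius replicate 5 at 40 weeks was 862, the lowest of its group. *Arntl2* had its highest KO+AAV heart value, 157, in replicate 1. The *Npas2* share of WT gastrocnemius replicate 5 at 10 weeks was the highest of its group, 19.8%.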

How the results depend on the processing

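*Npas2* in KO against WT lay between 1.93 and 2.05 at 10 weeks and between 2.98 and 3.002 at 40 weeks over the other settings and stayed called. For *Arntl* in KO against WT, Novogene alone gave -1.01 at 10 weeks (adjusted *P* = 0.0826), and leaving out a library at 40 weeks gave -0.70 to -0.26. *Clock* in KO+AAV against KO at 10 weeks was called with a mean above 50 (-0.50), edgeR (-0.52) and DESeq2 (-0.51). The *Npas2* share in KO against WT at 10 weeks differed by 15.8 points at ICBR and 11.99 at Novogene, where 3 against 3 allows no *P* under 0.1. Among fold changes, sign changed for uncalled values only: *Arntl2* in KO+AAV against KO at 10 weeks (Novogene -0.11, without replicate 4 -0.017), *Arntl* there (ICBR 0.13), *Clock* with age in KO (Novogene and both groups alone -0.062), *Npas2* with age in KO+AAV (no site term 0.012, Novogene and both groups alone 0.052, without replicate 4 0.059), the difference between ages in the KO effect on *Clock* (Novogene -0.0033) and *Arntl2* with GFP (DESeq2 -0.0085). With a library left out the ranges were -0.044 to 0.14 for *Clock* with age in KO and -0.089 to 0.059 for *Npas2* with age in KO+AAV. With GFP they were -0.28 to 0.038 for *Npas2*, -0.34 to 0.25 for *Arntl2* and -0.34 to 0.20 for *Arntl*. In the tissues they were -0.11 to 0.15 for *Arntl2* in lung, -0.00071 to 0.083 for *Clock* and -0.21 to 0.080 for *Arntl2* in heart, -0.27 to 0.11 for *Npas2* and -0.013 to 0.32 for *Arntl2* in liver, and -0.023 to 0.39 for *Npas2*, -0.19 to 0.36 for *Arntl2* and -0.12 to 0.078 for *Arntl* in white fat. The *Npas2* share in liver ranged from -5.56 to 1.42 points. TMM scaling gave, for neighboring tissues, *Arntl* white fat over liver -0.60, *Arntl2* white fat over heart 0.19, heart over lung 1.23 and lung over liver -0.0089, *Clock* lung over heart -0.56 and *Npas2* white fat over liver -0.36. The cause of these changes was not tested. Of the 43 clock list genes, 3 were called with age in KO, against 5 with edgeR, 8 with DESeq2 and 1 without replicate 2, and 3 with age in KO+AAV, against 5 with DESeq2. Over all genes, KO+AAV against KO gave 33 calls with limma, 49 with edgeR and 147 with DESeq2 at 10 weeks and 42, 34 and 79 at 40 weeks.

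Replicate numbers were not taken to pair the samples of a tissue. Of same-number pairs, 15 of 51 correlated above 0.1 (in white fat 3 of 4), and the own number correlated best in 40 of 102 comparisons. The same-number median exceeded that of other pairs in white fat (0.44 against -0.22) and in gastrocnemius (0.054 against -0.020 at 10 weeks, 0.037 against -0.016 at 40 weeks). It was also higher in lung and the GFP experiment, but lower in heart (-0.037 against -0.017) and liver (-0.028 against 1.4e-05). With a replicate block, *Npas2* in KO+AAV against KO at 40 weeks was -0.74 (limma adjusted *P* = 0.19), and no member's call changed. Across tissues, 21 of 48 same-number pairs of a group correlated above 0.1 (median 0.078), against 13 of 144 others (median -0.036). With a replicate block across tissues, chosen after seeing the data, *Arntl* in liver over heart, 0.27, was called (exact permutation, adjusted *P* = 0.0469), and the other 11 pairs of neighbors kept their side of the threshold. *Arntl2* gave no gastrocnemius value with a mean above 50. Depth limits *Arntl2* most, at 5 to 20 reads a library in KO+AAV at 40 weeks.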
